A study of Arabidopsis thaliana with 9 samples.

Results

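Binding of the transcription factor LEAFY (LFY) in callus was examined at summits that lay far from the start of any protein-coding gene or past the end of one. A summit is the base with the strongest signal of a peak. Such a distal summit lay outside every protein-coding gene body and not within 3000 bp upstream of any protein-coding gene start, by the TAIR10 annotation, and 232 of the 1177 summits on the 5 nuclear chromosomes met this rule (19.7%, 95% Wilson interval 17.5 to 22.1%). Bases that meet the same rule made up 20.9% of the 5 chromosomes. The class is broad, because a summit just past a gene end or next to a non-coding gene belongs to it. Of the 232 summits, 161 were also outside every other annotated gene and its 3000 bp upstream, 58 lay only upstream of another annotated gene, and 13 lay inside one, of which 10 were lncRNAs, 2 pseudogenes and 1 a misc_RNA. The values come from chromatin immunoprecipitation and sequencing (ChIP-seq) with an anti-LFY antibody in Arabidopsis thaliana of the cultivar L.er (Landsberg erecta), with 3 dex samples, 3 mock samples and 3 input samples. All 9 samples came from callus of the transgenic 35S:LFY-GR line without another mutation, made from roots of seedlings aged 3 weeks that were kept for 5 days on callus inducing medium. The dex group received 5 µM dexamethasone for 1 h and the mock group a mock treatment for 1 h, while the input is chromatin without immunoprecipitation and had no role in peak calling. Reads of the 3 dex libraries and of the 3 mock libraries were pooled before calling, so no value has an error between replicates and each interval covers counting error only.

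LFY is a plant-specific helix-turn-helix factor that turns a primordium into a flower and activates floral genes such as APETALA1. Both a monomer and a dimer of LFY can bind DNA, and its palindromic site has the core CCANTGG at its centre. In 35S:LFY-GR a constitutive promoter drives LFY fused to the hormone-binding part of the glucocorticoid receptor in most cells, and dexamethasone lets the fusion enter the nucleus, so binding was recorded in root-derived tissue that does not normally form flowers.

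The core is the part of the site that LFY needs most, and the 11 distal summits with an exact core centred within 25 bp are printed here to show how the bases around it varied. Sites are named by the flanking gene that is more familiar, read 5′ to 3′ on the plus strand of the RefSeq TAIR10.1 sequence (the Columbia accession), and capitals mark the core.
CRF2, chr4:12370846-12370864: aatagaCCAATGGttcctg
LBD29, chr3:21557033-21557051: tgctttCCAATGGgtctat
HB-1, chr1:9990907-9990925: ttcgacCCAGTGGttaaag
ATL43, chr5:1750767-1750785: gtgaatCCATTGGttcata
ARR3, chr1:22064751-22064769: taagttCCAATGGgtaatg
NRPD1A, chr1:23366517-23366535: ttgtgaCCATTGGatcata
BLH1, chr2:15099847-15099865: tcttaaCCAATGGttccaa
HB6, chr2:9517897-9517915: aagagaCCATTGGtacgat
ZFP4, chr1:24625448-24625466: cctcacCCATTGGaccttt
AT4G30170, chr4:14765587-14765605: tgtggaCCAATGGaccgac
HSFA6B, chr3:8083822-8083840: cactgtCCACTGGtcctct

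The folds of these 11 summits lay between 2.70 and 8.43. Most were above the median of 4.21 over all 232 distal summits, whose folds ranged from 2.23 to 18.5. Fold here is the authors' ratio of dex to mock signal at the summit. Dex reads and mock background were recovered from the deposited fold and p-value of each peak, and 17.97 reads is the genome-wide floor that the peak caller sets for the mock background. The summit 5270 bp upstream of CRF2, a cytokinin response factor of the AP2/ERF family, had 534 dex reads over a mock background of 49 reads and a fold of 8.43, and its core was centred 3 bp away. A summit 7475 bp upstream of LBD29, a lateral organ boundaries factor of lateral root formation, had 192 dex reads over a background of 17.97 reads, a fold of 8.03 and a core 5 bp away. At the low end, the summit 569 bp past the end of ELIP1, an early light-induced protein, had 98 dex reads over 28 mock reads and a fold of 2.70 with a core 5 bp away. Of the other cores of this set, a pair lay next to hormone and homeobox genes, 880 bp past the end of ARR3, a type-A cytokinin response regulator (186 dex over 27 mock reads, fold 5.27), and 1764 bp past the end of CYP705A24 and 3160 bp past that of HB-1 (212 dex over 23 mock reads, fold 7.0). The remaining summits with a core within 25 bp had folds of 6.23 between ATL43 and AT5G05820, 5.23 next to NRPD1A, the largest subunit of the plant RNA polymerase IV, 5.20 next to the homeobox gene BLH1, 4.65 next to the homeobox gene HB6, 3.50 next to the zinc finger gene ZFP4 and 3.04 next to the peroxidase gene AT4G30170.

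The distal summits with the highest folds had no exact core within 150 bp, but only 7.33% of all distal summits had one. Among distal summits with a −log10 q-value of at least 20 and 50, the share was 9.59% and 12.3%. Among other nuclear summits it also rose, from 14.5% to 17.8% and 19.1% at the same limits. The summit upstream of CRF2 ranked 25th of the 232 by fold and was the highest with an exact core within 150 bp. To show what stood at the top instead, 101 bp around the summits next to WRKY48, AT1G68360 and TFL1 are printed on the plus strand, with capitals for the 19 bp within 50 bp that scored best in the site model described next.
WRKY48, chr5:20085864-20085964: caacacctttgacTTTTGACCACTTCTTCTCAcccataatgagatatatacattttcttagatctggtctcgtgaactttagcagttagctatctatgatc
AT1G68360, chr1:25626737-25626837: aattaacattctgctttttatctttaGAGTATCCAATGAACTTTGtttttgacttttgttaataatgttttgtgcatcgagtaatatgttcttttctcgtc
TFL1, chr5:1021927-1022027: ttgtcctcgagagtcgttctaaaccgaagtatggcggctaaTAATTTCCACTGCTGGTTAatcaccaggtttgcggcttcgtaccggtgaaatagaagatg

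Sites that miss the core by 1 base are clearer when only the 19 bp are shown. The best sites at the summits named by their flanking genes WRKY6, nMAT1 and MP are printed with the core positions in capitals, on the plus strand, and each held 1 mismatch to CCANTGG.
WRKY6, chr1:23024028-23024046: atataaCCAAGGGaccaat
nMAT1, chr1:10521817-10521835: ttatatCTAATGGtcaaaa
MP, chr1:6882480-6882498: taagacACACTGGtccata

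An exact core within 150 bp was present at 17 of the 232 distal summits (7.33%), where the share over all nuclear summits was 13.1%. Windows of equal width 1000 bp to the left of the same summits held a core in 11 cases (4.74%), and so did 11 windows to the right. No summit had a core in both windows, and the difference did not pass an exact binomial test of the pairs in which only 1 window had a core (two-sided, 17 against 11, p = 0.345, adjusted p = 0.460 by Benjamini-Hochberg over 8 tests). The cores at distal summits were gathered near the summit base, 11 of them within 25 bp and 15 within 50 bp, against 1 and 4 in the left windows, and both narrower windows passed the same exact test (adjusted p = 0.0127 within 25 bp, a width chosen after seeing the data, and adjusted p = 0.0384 within 50 bp). Cores with up to 1 mismatch within 150 bp were present at 72.0% of distal summits against 42.7% of left windows (same exact test, adjusted p = 1.1e-09). For each such alternative the p-value replaced the main value among the 8 tests. The number of alternatives tried was not corrected for.

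To use the flanks of the core as well, a matrix of log2 odds over 19 bp was built from the 75 exact cores within 25 bp of the other 945 nuclear summits, so that no distal summit contributed to it. This step was added after seeing the data. The 215 distal summits without an exact core within 150 bp had a median best score of -0.14 within 50 bp (quartiles -3.57 and 4.57), against -4.51 (quartiles -6.87 and -2.22) for the left windows. The score was higher at the summit than in its own left window in 168 of 215 cases (78.1%) and higher than in the right window in 159 of 215 (74.0%), by exact two-sided binomial tests with adjusted p = 5.58e-17 and adjusted p = 1.29e-12 over 6 such tests. A score above 4.94, the 95th percentile of the left windows, was found at 51 of these summits (23.7%). Over all 232 summits, the best site held the exact core in 15 cases, 1 mismatch in 95, 2 mismatches in 109 and 3 mismatches in 13. A core with up to 1 mismatch lay within 50 bp of 47.4% of distal and 53.1% of the 945 other summits. In the left windows of the distal summits that share was 18.1%. Among the 808 other nuclear summits without an exact core the score was higher at the summit than on the left in 73.5% and than on the right in 77.0%. Their median best score was 0.52, and 28.7% of them scored above 5.07, the 95th percentile of their own left windows.

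**Figure D1:**
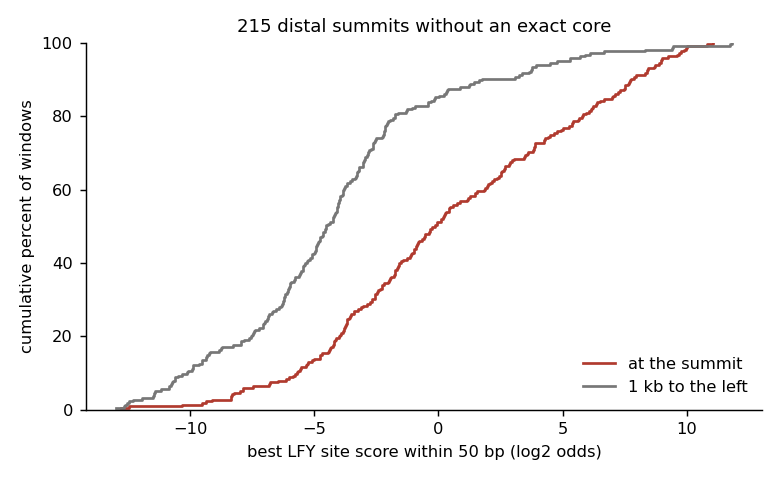
Cumulative percent of windows (y axis) by the best LFY site score within 50 bp in log2 odds (x axis), for the 215 distal summits without an exact core, at the summit and 1 kb to its left. The summit curve runs to the right of the left-window curve over most of the range, with medians of -0.14 and -4.51.

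Further short motifs, some of which overlap the LFY site, were searched on both strands within 50 bp of the summit. Their shares are descriptions without a test. The W-box core TTGAC, which WRKY factors recognise, was found at 33.6% of distal summits and at 34.1% of the 945 other summits, against 16.4% of left windows and 20.3% of right windows of the distal summits. Its extension by a C, picked after seeing the data, was at 15.9% of distal and 15.2% of other summits, against 6.03% on the left and 3.88% on the right. Of the same order was GGTCCA, also picked after seeing the data, at 13.8% and 14.8%, against 3.02% and 6.03%. In the LFY site model, GGTCCA holds the best scoring base at each position from 2 to 7 right of the centre. TTGACC has positive scores at each position from -7 to -2. Both can therefore be part of an LFY site, and whether any of these shares reflect other factors was not tested.

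The G-box CACGTG, bound by bHLH and bZIP factors, was less frequent, at 4.74% of distal and 5.50% of other summits against 1.72% and 2.16% of the flanks. A run of 6 adenines was at 21.6% and 22.9%, against 33.2% and 28.9%, and so was the one motif below both of its flanks. The auxin response element TGTCTC, at 6.47% of distal summits against 5.60% and 4.31%, and GAGAGA, at 7.33% against 8.19% and 7.33%, stood near their flanks. In the printed sequence next to WRKY48 the W-box core occurs 2 times, once with the extension.

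The highest fold of any distal summit, 18.5, was at chr5:20085914, 2872 bp past the end of PFD3, a prefoldin subunit, and 4734 bp upstream of WRKY48, a WRKY transcription factor. It had 679 dex reads over 28 mock reads, which scaled to equal depth is a ratio of 19.1 (exact 95% interval 13.1 to 29.0). Next came chr1:25626787, 4194 bp upstream of AT1G68360, a C2H2 zinc finger gene, and 4902 bp past the end of ARG1, a DnaJ protein of gravity signalling, with 672 dex reads over 28 mock reads and a fold of 18.3. These were also the 2 distal summits with the most dex reads, and the third was chr1:20956304, 794 bp past the end of the RING/U-box gene AT1G56030, with 549 dex reads over 35 mock reads and a fold of 12.0. By dex reads the 3 stood well above the median distal summit, which had 112 dex reads (quartiles 88.8 and 163).

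Several of the remaining summits of the top 10 lay past gene ends. At chr5:17141259 the fold was 14.9 with 492 dex reads over 25 mock reads, 86 bp past the end of the sugar isomerase gene AT5G42740 and 1557 bp past the end of BKI1, an inhibitor of the brassinosteroid receptor. At chr4:17754992, 835 bp past ACS8, an enzyme of ethylene precursor synthesis, and 3240 bp past MYB87, the fold was 14.5 with 347 dex reads over the floor of 17.97. The same counts and fold were found at chr1:23024017, 4523 bp upstream of WRKY6 and inside the lncRNA gene AT1G08497. TFL1, which encodes a phosphatidylethanolamine-binding protein that keeps the inflorescence meristem from becoming a flower, had a summit 2523 bp past its end, at chr5:1021977, with 324 dex reads over 20 mock reads and a fold of 12.2. At TFL1 the ratio at equal depth was 12.8 (exact 95% interval 8.13 to 21.2). This interval overlapped those of the other 9 summits, so its place among the 10 is not resolved by counting error.

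The other 3 of the top 10 were chr1:10521859, 5474 bp past nMAT1, a maturase of mitochondrial introns, 5512 bp upstream of AT1G30020 and 15598 bp from GA2OX2, an enzyme that inactivates gibberellin, on the other side (372 dex over 22 mock reads, fold 12.8), chr1:25627929, 5336 bp upstream of AT1G68360 (297 dex reads over the floor, fold 12.4), and chr1:27048293, 5737 bp upstream of SUC1, a sucrose transporter (288 dex reads over the floor, fold 12.0). Across all 232 distal summits the median fold was 4.21, with quartiles of 3.46 and 5.64 and extremes of 2.23 and 18.5.

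**Figure D2:**
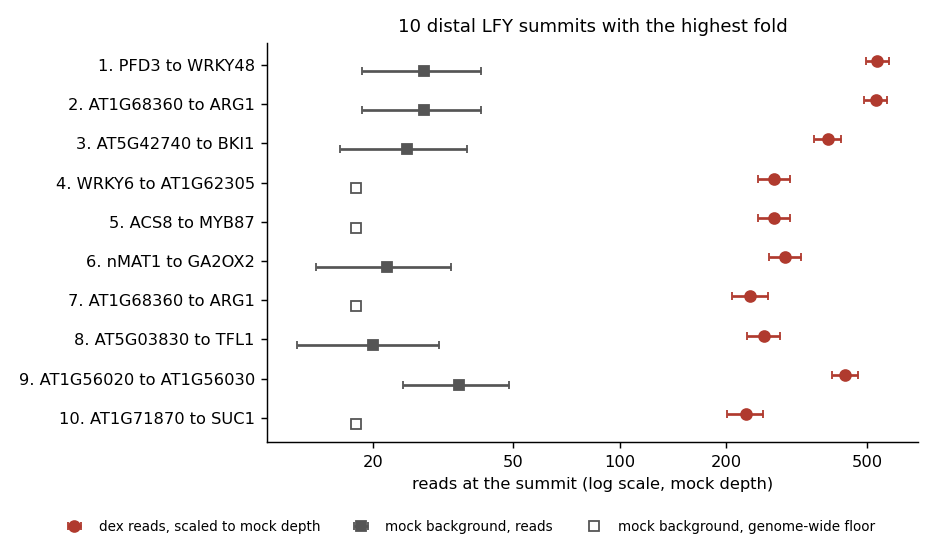
Reads at the summit on a log scale (x axis) for the 10 distal summits with the highest fold, named by their flanking genes, with dex reads scaled to mock depth as circles and the mock background as squares (open where it is the genome-wide floor of 17.97 reads). Bars are exact 95% Poisson intervals of the counts, and in all 10 the dex interval lies above the mock value and its bar. The 10 were picked by fold from peaks called for dex over mock, so this separation was fixed by the choice.

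Genes of floral fate and meristems were listed separately, and 8 distal summits had their nearest protein-coding start in that list of 86 genes, at 7 genes (3.45%, 95% Wilson interval 1.76 to 6.66%). Bases that meet the rule had a nearest start in the list in 0.457% of cases, and 1.48% of the other 945 summits did (0.885 to 2.47%). The gap to the bases was smaller in stretches of 100 kb with at least 40% of bases inside protein-coding genes. There the share was 3.37% of the 208 distal summits, against 1.33% of rule-meeting bases. MP (MONOPTEROS), the auxin response factor that activates LFY itself, had a pair of summits 4162 bp upstream (335 dex over 30 mock reads, fold 8.55) and 3327 bp upstream (89 dex over 19 mock reads, fold 3.56). BZIP27, a relative of the floral factor FD, had 1 at 3600 bp upstream (130 dex reads over the floor, fold 5.45), and STM, which maintains the shoot meristem, had 1 at 4411 bp upstream (147 dex over 24 mock reads, fold 4.67). The summit at PID, a kinase of auxin transport, lay 128 bp past the gene end (97 dex reads over the floor, fold 4.08).

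The weaker members of the list were those at SPT, a bHLH factor of carpel development (4660 bp upstream, 116 dex over 22 mock reads, fold 4.02), at ANT, an AP2 factor of organ growth (5217 bp upstream, 78 dex reads over the floor, fold 3.29), and at PLT1, an AP2 factor of root stem cells (3376 bp upstream, 72 dex reads over the floor, fold 3.04). Besides TFL1, 4 more listed genes flanked a distal summit without holding the nearest start. AFO (FILAMENTOUS FLOWER), a YABBY factor, had a summit 4940 bp upstream (257 dex over 22 mock reads, fold 8.85) and AIL6 had 1 at 6688 bp upstream (217 dex reads over the floor, fold 9.06) and 1 at 5503 bp upstream (110 dex reads over the floor, fold 4.62). CUC3, a NAC factor of organ boundaries, had 1 at 1471 bp past its end (fold 4.04), and MYB37, a regulator of axillary meristems, 1 at 1784 bp past its end (fold 3.37). AIL6, AFO and MP each had 1 summit with a fold above 8, while the other summits of listed genes, apart from that of TFL1, lay between 3.04 and 5.45.

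A pair of distal summits lay directly upstream of microRNA genes, which the rule does not count because they are not protein-coding. The mature miRNAs that these genes make are shown with bases 2 to 8, the seed, in capitals. Plant miRNAs select their targets by pairing over nearly their whole length.
ath-miR319a: uUGGACUGaagggagcucccu
ath-miR394a: uUGGCAUUcuguccaccucc

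MIR319a (AT4G23713, chr4:12352956-12353131, plus strand) makes a miRNA that cleaves mRNAs of TCP factors, which control leaf and petal growth. Its summit at chr4:12352328 was 628 bp upstream of the gene, with 176 dex over 20 mock reads, a fold of 6.65 and a ratio at equal depth of 6.93 (exact 95% interval 4.36 to 11.6). MIR394a (AT1G20375, chr1:7058194-7058310, plus strand) makes a miRNA that targets an F-box gene of stem cell competence, and its summit at chr1:7057697 was 497 bp upstream, with 126 dex reads over the floor and a fold of 5.28. The seeds of the pair differ. Neither summit had an exact core within 150 bp, and the best model scores were -9.10 for MIR319a and -3.97 for MIR394a.

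Distal summits often came in runs. Another summit of any class lay within 3 kb of 106 of the 232 distal summits (45.7%), where the share over all nuclear summits was 34.7% and over the 945 others 32.0%. The difference of 13.7 percentage points (95% Newcombe interval 6.75 to 20.8) passed Fisher's exact test, two-sided, with adjusted p = 0.000453. It was not past the threshold among summits with a −log10 q-value of at least 20 or with a limit of 5000 bp, and its size then was 8.39 and 0.819 points. The 106 summits fell into 67 runs, of which 21 held distal summits only (46 summits), 40 also held a summit up to 3 kb upstream of a gene and 11 a summit in a gene.

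In 7 runs there were 3 distal summits. The intergenic region upstream of AT1G68360 carried folds of 18.3, 12.4 and 7.02 at 4194, 5336 and 7478 bp, and a second run of 3 lay past the end of the same gene, at 1904, 1311 and 823 bp, with folds of 3.46, 3.75 and 6.36. This second run also held 1 summit up to 3 kb upstream of a gene, which had its highest fold, 9.12. SUC1 had folds of 10.2, 10.5 and 12.0 at 10135, 7650 and 5737 bp upstream, so its 3 summits were the most even of the strong runs. The run upstream of WRKY6 had folds of 3.51, 14.5 and 6.84 at 3318, 4523 and 5965 bp.

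At WRKY48 the summit with a fold of 18.5 stood between weak ones of 3.04 and 3.58, at 6277 and 4101 bp upstream, and 2 more summits of the run lay within 3 kb of the gene start. SPT had 3.96 to 4.95 at 4660 to 7410 bp upstream, and its run held 1 more summit up to 3 kb upstream of a gene. Between HB-1, a homeobox gene, and CYP705A24, a cytochrome P450 gene, the folds were 4.78, 3.28 and 7.0. Summits of 1 run share a stretch of chromatin and are not independent.

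**Figure D3:**
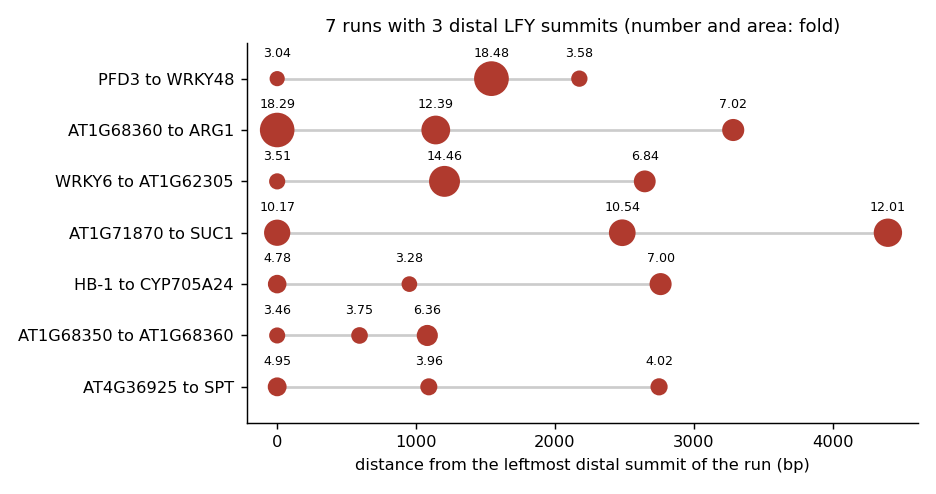
Distance in bp from the leftmost distal summit (x axis) for the 7 runs with 3 distal summits, each named by its flanking genes, with fold given as a number and as the area of the circle. WRKY48 and WRKY6 have 1 dominant summit each, whereas the 3 summits next to SUC1 lie between 10.2 and 12.0.

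The gene with the nearest start was a transcription factor of 9 listed families at 39 distal summits (16.8%, 95% Wilson interval 12.5 to 22.2%), at 32 genes. This was the case for 9.31% of the other 945 summits (7.62 to 11.3%) and for 4.06% of rule-meeting bases. Among the 208 distal summits in stretches of 100 kb with at least 40% of bases inside protein-coding genes, the share was 15.9%, against 8.63% of rule-meeting bases there. The lists were drawn up with earlier results known, so no test was made on them. Genes entered a list by description or symbol, and the lists are not complete. For example, RAP2.4, HAT22 and AIF1 flank distal summits but are missing from the AP2/ERF, homeobox and bHLH lists.

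AP2/ERF factors accounted for 10 of these summits at 10 genes (4.31%, against 1.27% of other summits), and among them were the cytokinin response factors CRF2, CRF3, CRF4 and CRF10, the developmental factors ANT and PLT1, and ERF8 and ERF15. The C2H2 zinc finger genes followed with 7 summits at 3 genes, 5 of them at AT1G68360 (3.02%, against 0.741%), and the homeobox genes with 6 at STM, WOX11, HB5, HB21, HB25 and HB40 (2.59%, against 1.06%). The shares of the remaining families lay closer to those of other summits. MYB factors had 5 summits (2.16%, against 1.48%) and bHLH factors 5 (2.16%, against 1.59%). WRKY factors had 4, at WRKY6 and WRKY48 (1.72%, against 1.27%), and NAC factors 2 (0.862%, against 1.06%). No distal summit had a MADS-box or GRAS gene as its nearest start, which allows a share of up to 1.63% of each by the Wilson interval, and the other summits had 0.317% and 0.529%. Genes of the cytokinin list, which does not hold CRF10 or LOG3, were nearest at 5 summits (ARR3, the isopentenyl transferase gene IPT1, CRF2, CRF3 and CRF4), or 2.16% against 0.423% of other summits. Genes of the auxin list were nearest at 4 (1.72%, against 1.69%) and receptor kinases at 2 (0.862%, against 1.69%). The auxin list does not hold IAA8, GH3.3, GH3.17 or PIN7, which also flank distal summits, so its shares are partial.

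Within the stretches that meet the rule, distal summits kept to gene-rich DNA. Only 8 of 232 (3.45%) lay where under 20% of the surrounding 100 kb was inside protein-coding genes, although 54.7% of rule-meeting bases are found there. Stretches with 40 to 60% held 58.2% of the summits and 18.4% of the bases, and those with 60% or more held 31.5% and 11.7%. By distance from the nearest protein-coding gene, 35.3% of summits lay within 1 kb, against 16.7% of the bases, and 3.02% lay over 6 kb away, against 46.8%. Only uniquely mapped reads were kept, and how many of these bases such reads can cover was not measured, so some bases may be unable to yield a summit.

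The flanking genes pointed the same way at 49.6% of summits (48.6% of bases), towards the summit at 31.0% (29.6%) and away from it at 19.4% (21.7%), so orientation was close to that of the bases. The median distance was 1767 bp to the nearest protein-coding gene (range 42 to 17378 bp) and 4552 bp to the nearest start that the summit was upstream of. Of the 187 summits that faced a gene end, 82 lay within 1000 bp past it. An exact core within 150 bp was at 7 of the 41 summits over 500 and up to 1000 bp past an end (17.1%), the highest share, and at 1 of 37 over 3000 bp past an end (2.7%), the lowest, given here without a test.

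**Figure D4:**
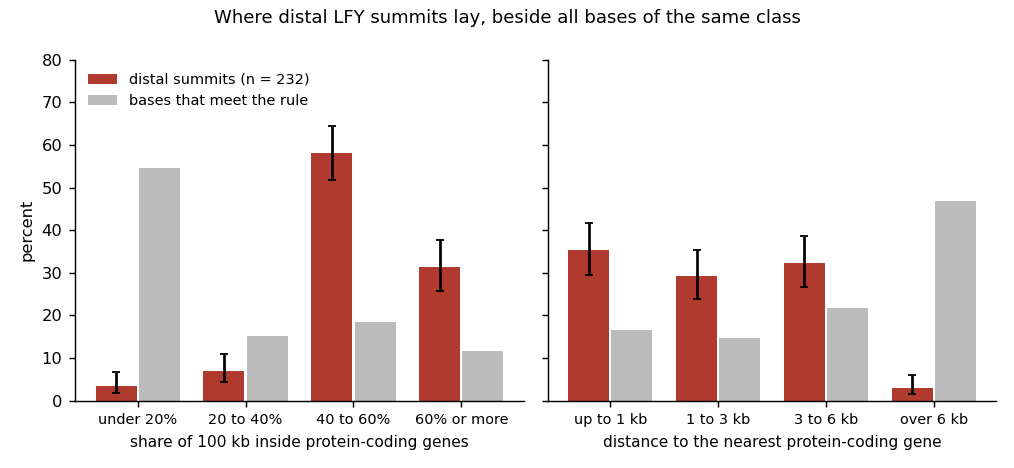
Percent of the 232 distal summits, with 95% Wilson intervals, beside the percent of all bases that meet the rule, by the share of the surrounding 100 kb inside protein-coding genes and by the distance to the nearest protein-coding gene in kb. Summits fall mostly in the 2 classes above 40%, and the largest class of bases, under 20%, holds 3.45% of summits.

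The summits farthest from genes were found at both ends of the range of folds. The 5 summits farthest from a protein-coding gene lay between 17378 and 6792 bp away and had folds of 4.22, 10.2, 2.59, 10.5 and 2.23. Both strong ones belong to the run at SUC1. The farthest, at chr3:11510378, was inside the lncRNA gene AT3G05945 and 17378 bp upstream of PMAT2, an acyltransferase, with 154 dex over 28 mock reads. The remaining pair lay inside pseudogenes on chromosomes 3 and 5, and the second of these, at chr5:11198759, had the lowest fold of all (132 dex over 46 mock reads). By position, the 3 summits just inside the limit were 3008 bp upstream of PSRP4 next to AUX1, 3015 bp upstream of MYB28 and 3017 bp upstream of AT5G66430, with folds of 5.23, 3.21 and 5.12. The 3 just outside it, at 2989, 2986 and 2986 bp, had folds of 4.40, 5.04 and 4.0.

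Compared with the 945 other nuclear summits, distal summits held an exact core less often. The shares were 7.33% (4.63 to 11.4%) and 14.5% (12.4 to 16.9%), a difference of -7.17 percentage points (95% Newcombe interval -10.8 to -2.57) by Fisher's exact test, two-sided, adjusted p = 0.0085. The direction held within 50 bp (6.47% and 10.7%), but that difference did not pass the same exact test (adjusted p = 0.129), nor did that for cores with up to 1 mismatch within 150 bp (72.0% and 74.0%, adjusted p = 0.748).

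The mock background stood at the genome-wide floor at 101 distal summits (43.5%) and 275 other summits (29.1%), where the share over all nuclear summits was 31.9%. This difference of 14.4 points (95% Newcombe interval 7.54 to 21.5) passed the same exact test with adjusted p = 0.000324, and the median mock background was 18 reads at distal summits and 20 reads at the others. Fold was above the median of all nuclear summits at 53.5% of distal and 48.7% of other summits (49.6% over all, exact test, adjusted p = 0.341), and dex reads were above it at 48.3% and 49.2% (49.0% over all, adjusted p = 0.884). Peak width was above its median of 357 bp at 56.5% of distal and 48.4% of other summits (50% over all), a difference of 8.11 points (interval 0.926 to 15.1) that did not pass after adjustment (exact test, adjusted p = 0.0561). It passed when every annotated gene decided the class (exact test, adjusted p = 0.00449). GC content within 150 bp was above its median at 48.3% of distal and 49.0% of other summits (48.9% over all, exact test, adjusted p = 0.884), and the 95% interval of that difference, -7.82 to 6.43 points, leaves room for either sign. The tests treat summits as independent and compare places in 1 pool of libraries, not biological samples.

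**Figure D5:**
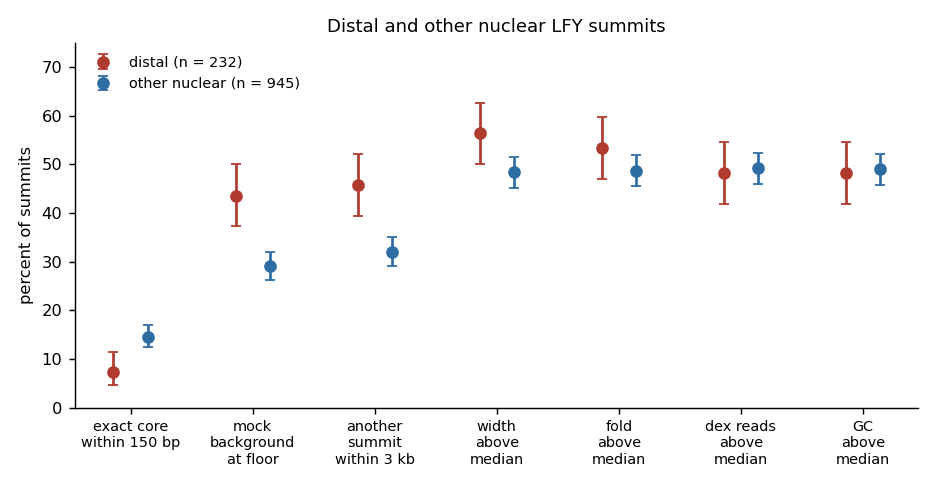
Percent of summits (y axis) with each feature at the 232 distal and the 945 other nuclear summits, with 95% Wilson intervals as bars. Distal summits are lower for the exact core (7.33% and 14.5%) and higher for the mock floor (43.5% and 29.1%) and for another summit within 3 kb (45.7% and 32.0%).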

How the data were processed

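Versions are those of the submitters' processing notes, and the methods of the study name other releases of Trimmomatic and MACS2. The authors trimmed reads with Trimmomatic 0.36, mapped them with Bowtie2 2.3.1 to TAIR10, kept uniquely mapped reads and called peaks with MACS2 2.1.1.20160309 on pooled dex over pooled mock libraries. The deposited list gives an interval, a summit offset, a score, a fold (a ratio) and −log10 p-values and q-values, with a −log10 q-value of at least 10. The deposited score was not used. The series text gives a treatment of 24 h, against 1 h in the sample labels, and no computation depended on it.

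Dex reads and mock background were solved from the deposited fold and p-value under the Poisson model of MACS2, in which the background is the highest of 4 estimates. All 1181 peaks were solved, 1177 of them with 1 accepted pair and 4 with the better of 2. The pools held about 16.7 M dex and 13.2 M mock reads, and the depth of single libraries is unknown. Simulated peaks of the same Poisson model tested only whether the true pair was among the solutions, not the step that accepts a pair. The RefSeq annotation held 27444 protein-coding genes. Tests were exact (SciPy 1.17.1), adjusted by Benjamini-Hochberg over 8 tests at a threshold of 0.05. In an alternative setting, the new p-value replaced the main value among the 8, without correction for the number of settings tried. Regions named were the 10 highest folds, cores within 25 bp, the 5 farthest from genes, runs of 3, the 3 on each side of the limit, the 3 with most dex reads, and summits next to listed floral, meristem and microRNA genes. TFL1 also falls under the first of these, and AFO, AIL6, CUC3 and MYB37 were named as further listed genes beside a distal summit. Members and lists were chosen with earlier results of these data known.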

Additional observations from a re-analysis of the deposited data

How the results depend on the processing

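Of 75 alternatives, 51 kept the direction and the side of the threshold (counts within 1.5 times). The number of distal summits was 146 and 57 where the smallest −log10 q-value kept was 20 and 50, and 357 and 96 with a limit of 2000 and 5000 bp. Differences follow in percentage points. The core share against the left window passed with the 2000 bp limit (5.04), within 50 bp (4.74) and with 1 mismatch (29.3), and also with choices made after seeing the data, 1 mismatch within 50 bp (29.3) and an exact core within 25 bp (4.31). The core share against other summits did not pass at a −log10 q-value of 50 (-6.84), with the 5000 bp limit (-7.44), within 50 bp (-4.22), with 1 mismatch (-1.99) and, chosen after seeing the data, with 1 mismatch within 50 bp (-5.71) and within 25 bp (-3.20). The mock floor did not pass at 50 (12.0). Another summit within 3 kb did not pass at 20 (8.39), at 50 (8.51), with the 5000 bp limit (0.819) or within 1 kb (5.62). Width passed when all annotated genes decided (13.4). The sign turned, with neither value past the threshold, for dex reads at 20 (3.95), with all annotated genes (2.21), with 1 summit per run (1.22) and above the upper quartile (1.21), and for GC content with the 5000 bp limit (9.19), with 1 summit per run (0.901) and against summits up to 3 kb upstream only (5.13). The causes were not tested. No paired analysis was possible because libraries were pooled before calling, and for the same reason no replicate could be left out.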
